A study of Drosophila melanogaster with 6 samples.

Results

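Chromosome 4 of Drosophila melanogaster carried 73 of the 12133 single genes for which features were listed in the series, and 1349 of the 96240 listed features. Membership was set by position only, as every feature with chromosome 4 as its chromosome, together with the gene counts of the genes these features belong to. The choice was made with earlier results of these data known. Of the 1349 features, 719 were exonic parts (stretches of exon that the annotation does not divide further), 612 were annotated splice junctions and 18 were new junctions, seen in the reads but not in the annotation. RNA was measured in dissected eyes of male flies at day 10 (3 libraries) and day 40 (3 libraries) after eclosion. All flies, at both ages, carried Rh1-Gal4 driving UAS-GFP-Msp300KASH in a w background, so that the outer photoreceptors, where Rh1-Gal4 is active, expressed the GFP-tagged KASH protein, and no eyes without the transgene were compared. Flies were kept at 25 °C in a 12:12 h light:dark cycle. Ribosomal RNA was depleted from total RNA, so that unspliced and non-coding RNA stayed in the libraries.

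Chromosome 4, also called the dot chromosome or Muller element F, is the smallest autosome of the fly. Most of its length carries marks of heterochromatin, such as methylation of histone H3 by the enzyme Eggless and binding of the protein HP1a, yet its genes are interspersed with repeats and are broadly active. It is also the chromosome that the protein Pof binds along its length, and Pof helps to keep up the output of its genes. Among its genes are both fly Pax6 genes, ey and toy, which direct eye development, several neuronal kinases and receptors, and the giant muscle protein projectin.

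The libraries held 8476220 to 15029770 counts on genes, and every pair of libraries of the same age differed by more than counting error, so each library was taken as 1 replicate. The series calls the libraries biological replicates, and the number of flies in each is not given in the sources used here. Photoreceptor markers were high in all libraries: the normalized counts of 10 markers summed to between 711388 and 1282443 at day 10 and between 837965 and 1026345 at day 40. The highest of these sums was that of day 10 replicate 1, the library that also stood apart for chromosome 4. Most of that sum was ninaE, at 899024. ninaE, Arr1, ninaC, norpA and inaD (counted with RpL23) were highest in that library, while Arr2, trp, Rh3, Rh4 and Rh6 were not. Rh3, Rh4 and Rh6 were higher at day 40 without overlap. The 4 fat body markers summed to between 3930 and 5373 at day 10 and between 1388 and 2687 at day 40, and the 3 hemocyte markers to between 3137 and 5680 and between 1652 and 1843, without overlap between the ages. The hemocyte sum was nearly all Hml, while Sr-CI was higher at day 40 without overlap and NimC1 overlapped. The fat body sum was carried by Lsp2 and Yp1, each counted together with an antisense gene, while CG34166 and Fbp1 overlapped. The sums of 4 neuron, 3 glia, 6 muscle and 3 testis markers overlapped. In whole eyes, fewer cells of a type and less RNA per cell cannot be told apart.

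The genes of chromosome 4 were longer, more divided and more often detected than those of the other arms. Normalized counts are counts divided by the median-ratio size factor of the library. Averaged over the 6 libraries, they came to 10 or more for 63 of the 73 genes (86.3%), against 57.3% of the genes of arms 2L, 2R, 3L, 3R and X, which ranged from 50.3% on 2L to 62.0% on X. Among the genes at this level, the median chromosome 4 gene spanned 8.37 kb and had 9 exonic parts, 7 junctions and 3 annotated transcripts. The median gene of the other arms spanned 2.79 kb and had 5 exonic parts, 3 junctions and 2 transcripts. The median mean count was 1031 on chromosome 4 and 198 on the other arms, and the median normalized count per kilobase of exonic parts was 348 against 101. At least 1 new junction was listed for 22.2% of these chromosome 4 genes and for 4.06% of those on the other arms. These are properties of the annotation and of the levels summed over both ages, and no test was made of them.

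The 73 genes spanned a wide range of levels, from 0.986 normalized counts per kilobase for CR32010 to 4647 for RpS3A, which encodes a protein of the small ribosomal subunit. The level of RpS3A was 3893 counts per kilobase in the lowest library and 5271 in the highest. The next highest level was that of CG31997, at 1064 counts per kilobase. CaMKI, a calcium/calmodulin-dependent kinase, followed at 952. The translation initiation scaffold eIF4G1 had 868 and ND-49, a subunit of mitochondrial complex I, had 744. These were followed by Cadps, which acts in the release of dense-core vesicles (721), toy (693), the adaptor Crk (665), gw, the fly GW182 protein of microRNA silencing (639), and the calcium/calmodulin-dependent kinase CaMKII (593). All these values are levels averaged over the 6 libraries. The 10 genes that were too low to test had mean normalized counts of up to 9.04 and are mir-954, snoRNA:CD-24, 3 of the lncRNA genes and 5 genes named CR. mir-954 and snoRNA:CD-24 are shorter than most fragments of such libraries, and snoRNA:CD-24 and CR44028 lie within RpS3A and Ekar, so their counts may not measure these RNAs.

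**Figure D1:**
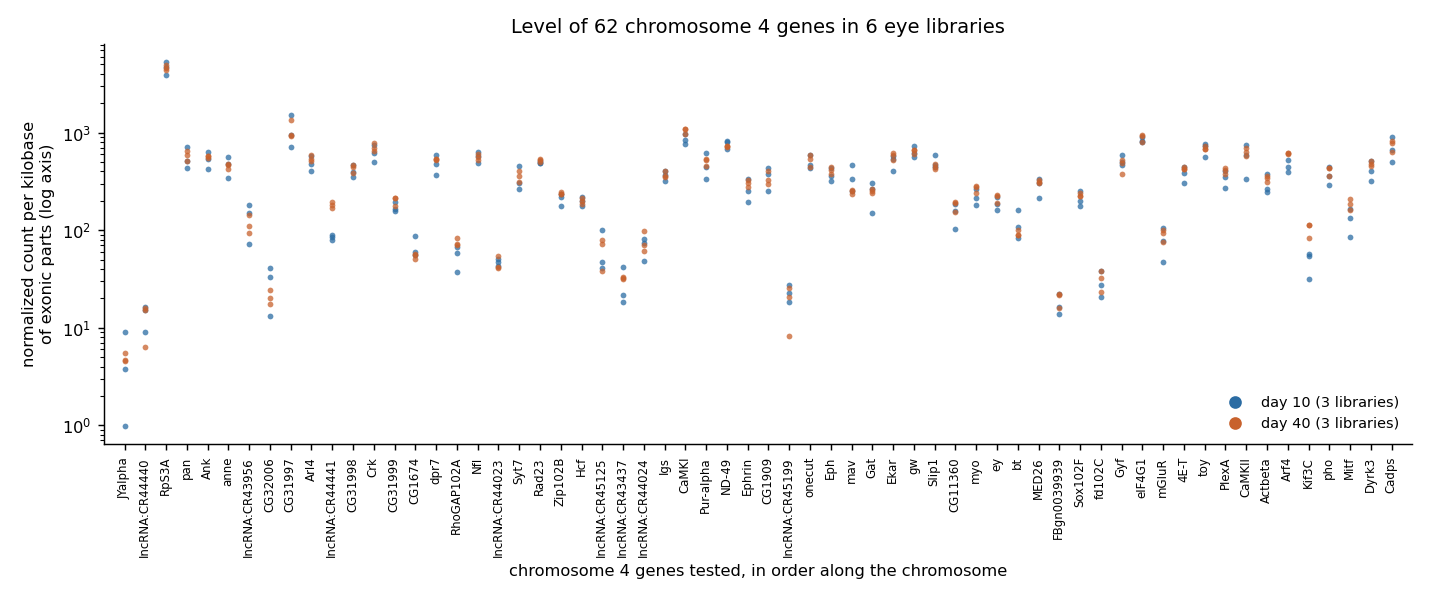
Normalized count per kilobase of exonic parts (log axis) of 62 of the 63 chromosome 4 genes tested, in their order along the chromosome. Each point is 1 library, in blue for day 10 and orange for day 40. RpS3A lies above all others in each library, and lncRNA:CR44441 and Kif3C are among those whose colours do not mix.

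With age, 2 chromosome 4 genes rose and none fell. Both rose about as much: the long non-coding RNA gene lncRNA:CR44441 by 1.10 and the kinesin gene Kif3C by 1.10 on the log2 scale. They were called by edgeR's quasi-likelihood test with a Benjamini-Hochberg adjusted p under 0.1 over the 9255 genes and groups of genes tested, of which 2.14% were called as higher at day 40 and 1.98% as lower. The 2 higher genes were 3.17% of the 63 members tested, a share near that of all genes. An unadjusted p under 0.05 was found for 7 members (11.1%) and for 14.3% of all genes tested. The 7 were lncRNA:CR44441, Kif3C, Arf4, Mitf, CaMKI and RhoGAP102A, with a positive change, and mav, with a negative one. At day 40, 4 members lay above their day 10 range (6.35%, against 10.3% of all genes tested) and 0 below it (against 9.92%). With DESeq2 in place of edgeR the same 2 members were called.

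lncRNA:CR44441 (FBgn0265634, chromosome 4, 194732 to 195900, build BDGP6) has 1 exonic part of 1169 bases and no junction. Its normalized counts were 92.5, 104 and 99.3 at day 10 and 212, 227 and 199 at day 40. All day 40 libraries were thus above all day 10 libraries, and the spread within each age was small, with means of 98.5 ± 5.59 and 213 ± 14.3 (SD, n = 3 each). The log2 change was 1.10 ± 0.16 (SE) and the edgeR adjusted p was 0.0108. The gene lies 774 bases from CG31998. The table does not use strand, so that reads from unannotated ends of a neighbour could not be told from its own. The counts of CG31998 overlapped between the ages, with 2104, 2769 and 2374 at day 10 followed by 2299, 2655 and 2790 at day 40.

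Kif3C (FBgn0039925, chromosome 4, 1147466 to 1169239) encodes a motor protein of the kinesin family, which carries cargo along microtubules. Its normalized counts were 139, 248 and 238 at day 10 and 365, 493 and 493 at day 40. The groups did not overlap, and day 10 replicate 1 was the lowest of the 6. The means were 208 ± 60.2 and 450.2 ± 73.5 (SD, n = 3 each), the log2 change was 1.10 ± 0.23 (SE) and the edgeR adjusted p was 0.0449. The call was lost when day 40 replicate 2 (log2 change 1.04, edgeR adjusted p = 0.172) or day 40 replicate 3 (1.03, edgeR adjusted p = 0.162) was left out. Over all genes tested, those called as higher also fell, from 198 to 74 and 100. Without day 10 replicate 1 the call of Kif3C was kept, at a log2 change of 0.89 and an edgeR adjusted p of 0.0261.

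The next genes by p did not pass the test. Arf4, a small GTPase of the secretory pathway, had normalized counts of 415, 485 and 363 at day 10, against 581, 578 and 568 at day 40. The ages did not overlap and the day 40 libraries lay close together, and the edgeR adjusted p was 0.122 at a log2 change of 0.45 ± 0.13 (SE). Mitf, a basic helix-loop-helix factor of lysosomal genes, had 394, 755 and 617 at day 10 and 740, 851 and 958 at day 40 (log2 change 0.52 ± 0.22, edgeR adjusted p = 0.309), and its ages overlapped. CaMKI had 2862, 3251 and 2590 at day 10 and 3243, 3656 and 3715 at day 40 (0.29 ± 0.12, edgeR adjusted p = 0.314), where the lowest day 40 library was just under the highest day 10 library. RhoGAP102A was the only other member without overlap, with counts of 206, 367 and 319 at day 10 and 391, 401 and 455 at day 40.

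Among the members with a negative change, mav, a ligand of the TGF-beta family, had the lowest p. Its normalized counts were 1252, 896 and 677 at day 10 and 679, 691 and 638 at day 40, with a log2 change of -0.49 ± 0.19 (SE) and an edgeR adjusted p of 0.275. The lowest day 10 library was at the day 40 level and the others were above it. Without day 10 replicate 3, the lowest of its age, mav was called as lower (log2 change -0.67, edgeR adjusted p = 0.0948), and without day 10 replicate 1, the highest, its log2 change was -0.23 (edgeR adjusted p = 0.481). The next were CG1674 (-0.33 ± 0.20, edgeR adjusted p = 0.522), bt (-0.35 ± 0.22, 0.545), Slip1 (-0.15 ± 0.12, 0.65) and CG32006 (-0.49 ± 0.43, 0.694). Without day 10 replicate 3 the log2 change was -0.07 for CG1674, -0.03 for bt and -0.10 for CG32006, and without day 10 replicate 2 it was -0.04 for Slip1. bt encodes projectin, an elastic giant protein of muscle, and its counts were 3030, 2340 and 4543 at day 10 and 2517, 2789 and 2506 at day 40. The high value was in day 10 replicate 3, where the sum of 6 muscle markers was also highest, at 14653 against 10141 to 11879.7 in the other libraries. Mhc, Tm2, Mlc2 and up were highest there, while sls (counted with an antisense gene) and Act88F were not. The part of muscle RNA in the change of bt was not tested.

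**Figure D2:**
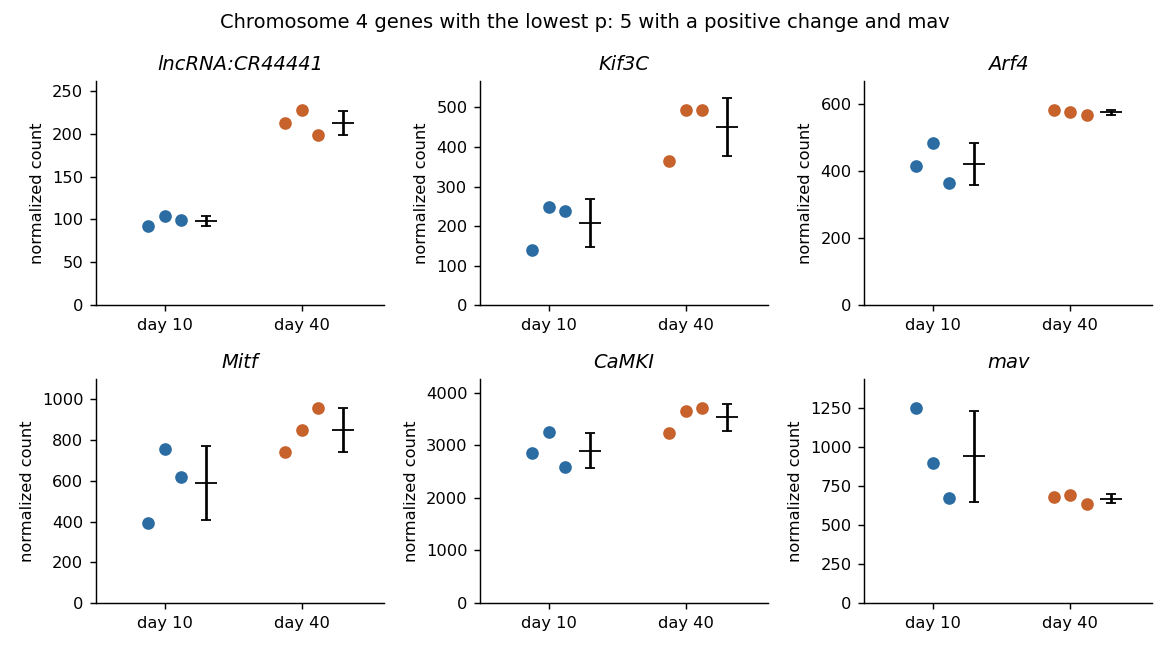
Normalized counts of 6 chromosome 4 genes in each library, with day 10 in blue and day 40 in orange. The bar beside each group is the mean with the SD over 3 libraries. The ages do not overlap for lncRNA:CR44441, Kif3C and Arf4 and overlap for Mitf, CaMKI and mav.

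Grouped by role, 37 members fall into 8 lists, and for 59 of the 63 members tested the ranges of the ages overlapped. Kif3C was the only listed member called, by edgeR and by DESeq2. The median log2 change of the members of each list with more than 1 member was between 0.02 (translation and RNA) and 0.21 (guidance receptors), against -0.01 over all genes. Without day 10 replicate 1 these medians were between -0.08 (translation and RNA) and 0.07, and that of the synapse genes also turned, from 0.19 to -0.03. The lists follow textbook roles and were drawn up with earlier results of these data known.

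Of the transcription and chromatin genes, 11 were members and 0 were called. The Pax6 gene ey had 605 to 811 normalized counts at day 10 (median 682) and 701 to 856 at day 40 (median 843), and its paralog toy 2195 to 3018 (median 2881) and 2676 to 2856 (median 2684). Per kilobase of exonic parts, toy was at a level of 693 and ey at 202. pan, the TCF factor at the end of the Wnt pathway, had 6324 to 10194 counts at day 10 and 7348 to 9310 at day 40. Its partner lgs, the fly BCL9, had 1724 to 2189 and 1861 to 2165. onecut, a homeobox gene of neurons and photoreceptors, had 2894 to 3977 and 2975 to 3998. The Polycomb group gene pho, the factor NfI, Hcf, Sox102F and the Mediator subunit MED26 also overlapped between the ages.

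Of the synapse and channel genes, 5 were members and 0 were called. Cadps had 2900 to 5234 normalized counts at day 10 and 3679 to 4726 at day 40. Ekar, a subunit of kainate-type glutamate receptors in the eye, had 1197 to 1702 and 1539 to 1822. mGluR, the metabotropic glutamate receptor of the fly, had 303 to 668 and 481 to 637, and Syt7, a calcium sensor of membrane fusion, had 866 to 1510 and 1032 to 1334. In 3 of these 4, Ekar being the exception, day 10 replicate 1 was the lowest of the 6 libraries. Among the guidance receptors and their ligand, day 10 replicate 1 was the lowest in each. PlexA, which binds semaphorins, had 2850 to 4259 and 3989 to 4571, the receptor Eph 1856 to 2491 and 2147 to 2539, and its ligand Ephrin 1042 to 1763 and 1477 to 1722. Of these 3 members, 0 were called.

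The 3 ligands of the TGF-beta family on the chromosome, which signal through activin and BMP type receptors, were all detected and 0 were called. The activin Actbeta had 903 to 1395 normalized counts at day 10 and 1137 to 1317 at day 40, and myo (myoglianin) had 716 to 1040 and 961 to 1116. In both, day 10 replicate 1 was the lowest of the 6 libraries, whereas for mav it was the highest. Of the 5 cytoskeleton and muscle genes Kif3C was called, and Ank (ankyrin, a link of membrane proteins to the cytoskeleton), Crk and bt overlapped between the ages.

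Of the 4 genes of translation and RNA regulation 0 were called. RpS3A had 5252 to 7111 normalized counts at day 10 and 5914 to 6723 at day 40, eIF4G1 had 5235 to 5918 and 5283 to 6189, gw had 4135 to 5350 and 4493 to 4957, and Gyf, a partner of translational repressors, had 2379 to 3036 and 1945 to 2709. ND-49 was the one member of the metabolic genes, with 1088 to 1300 counts at day 10 and 1131 to 1157 at day 40. Of the 5 genes of trafficking and kinases, 0 were called. Rad23, which carries ubiquitinated proteins to the proteasome, was the steadiest of them, with 995 to 1030 and 1015 to 1077. The kinase Dyrk3 had 1317 to 2113 and 1863 to 2087, and Pur-alpha, which binds single-stranded DNA and RNA, 995 to 1818 and 1357 to 1583.

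Of the members in no list, 8 were long non-coding RNA genes that could be tested. The 7 besides lncRNA:CR44441 had mean normalized counts between 13.4 and 191, and all 7 overlapped between the ages. The other 18 were protein-coding or unnamed genes, none of them called by edgeR or DESeq2 and all overlapping between the ages. They include CaMKII, whose kinase acts at synapses, with 1520 to 3404 normalized counts at day 10 and 2645 to 3185 at day 40. dpr7, a cell surface protein of the immunoglobulin superfamily, had 560 to 900 and 799 to 822, and 4E-T, a binding partner of the cap-binding protein eIF4E, had 1117 to 1652 and 1551 to 1643. In each of these 3 the day 40 range lay within the day 10 range, and day 10 replicate 1 was the lowest library.

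Along the chromosome, the 2 called genes lay far apart, at places 16 and 69 of the 73. Of the 63 members tested, 49 had a log2 change above 0 (77.8%, against 48.9% of all genes tested), and 48 lay within 0.25 of 0. The median log2 change was 0.12 on chromosome 4 and -0.01 over all genes tested. Cut into 3 equal parts of 21 genes by position, the median was 0.08, 0.07 and 0.19, with 14, 16 and 19 genes above 0. Arf4, Kif3C and Mitf, 3 of the 5 genes with a positive change and the lowest p, lie at places 68, 69 and 71, between 1124167 and 1224467, with pho at place 70 at 694, 1048 and 860 normalized counts at day 10 and 855, 1034 and 1035 at day 40. This cluster was noticed after the values were seen. The shift of the median rested on 1 library: without day 10 replicate 1 it was 0.03 on chromosome 4 and -0.00114 over all genes.

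**Figure D3:**
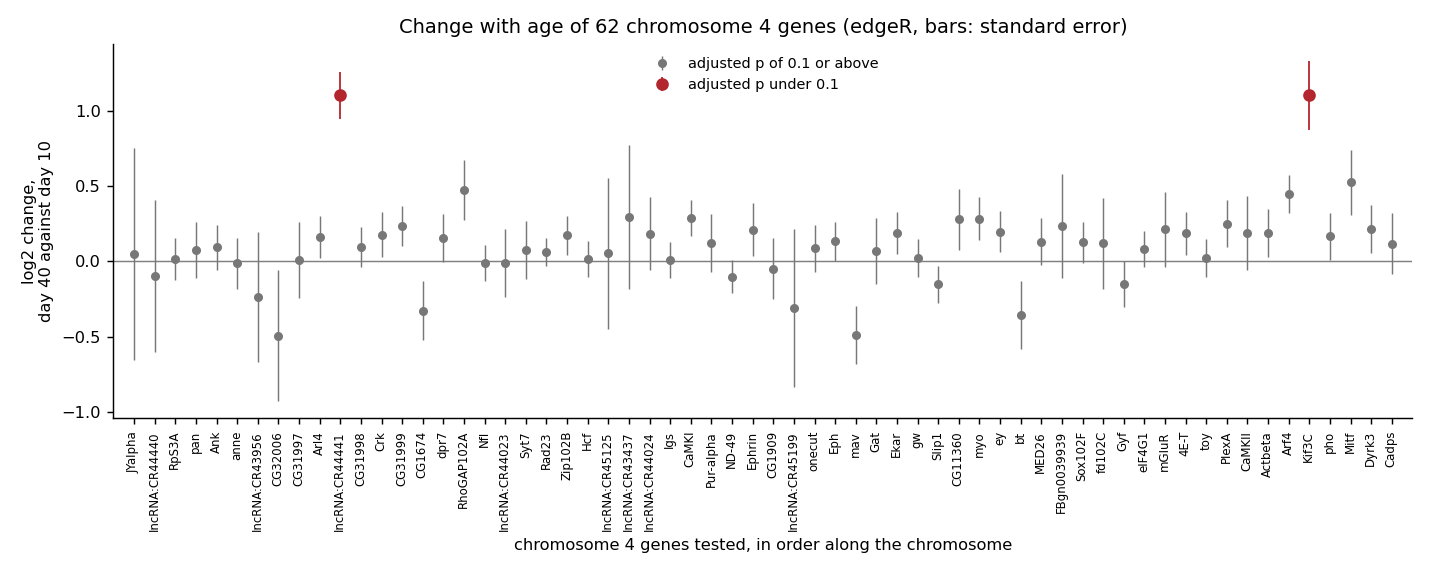
Log2 change from day 10 to day 40 with its standard error for 62 of the 63 chromosome 4 genes tested by edgeR, in their order along the chromosome. The genes called at an adjusted p under 0.1, lncRNA:CR44441 and Kif3C, are in red at 1.10. Most of the others lie slightly above 0.

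The level of the chromosome as a whole differed more between libraries than between ages. For each library, each gene's log2 level (pseudocount 0.5) less its mean over the 6 libraries was taken, and the median over the 63 chromosome 4 genes was set against the median of the 6824 genes of the other arms, weighted to the same 5 bins of mean count. This relative level was -0.29, 0.10 and 0.00121 at day 10 and -0.06, 0.08 and 0.16 at day 40 (log2). The ages overlapped, since day 10 replicate 2 lay above 2 of the day 40 libraries and day 10 replicate 1 lay far below all others. The means were -0.06 ± 0.20 and 0.06 ± 0.11 (SD, n = 3 each), a difference of 0.12 (two-sided exact permutation test, p = 0.6, where 3 against 3 cannot go below 0.1). Without day 10 replicate 1 the difference was 0.01.

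No other arm moved as far. From the lowest to the highest library the relative level of chromosome 4 ranged over 0.45, while that of 2L, 2R, 3L, 3R and X ranged over between 0.03 (2R) and 0.08 (X), each from between 1177 and 1675 genes. A median over 63 genes varies more than one over so many, and the part of this in the wider range was not tested. In day 10 replicate 1, 50 of the 63 chromosome 4 genes (79.4%) were below their own mean over the libraries, against 47.6% of genes of the other arms at like mean count. Of the 50 genes in the upper 2 of the 5 bins, 44 were below it. Day 10 replicate 1 was the lowest of the 6 libraries for 39 of the 63 genes (61.9%), and for 27.1% of all genes tested. In day 40 replicate 3, only 8 of the 63 were below their mean (12.7%, against 52.4% elsewhere). When genes were grouped by span or by exonic length in place of mean count, the relative level of day 10 replicate 1 was -0.27 in both cases.

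The genes that were lowest in this library were of many kinds. CaMKII had 1520 normalized counts in it and 2645 to 3404 in the others. mGluR had 303 against 481 to 668, and Gat, a GABA transporter, 439 against 702.7 to 883. toy, CG31997 and mav were instead highest there, with 3018, 1104 and 1252. The median deviation of this library was -0.33, -0.18 and -0.39 in the first, middle and last 21 genes along the chromosome, with 16, 17 and 17 of the 21 below their mean, so that it was spread over the whole length. The photoreceptor marker sum, most of it ninaE, was highest in the same library, at 1282443, and its part in the low level was not tested.

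**Figure D4:**
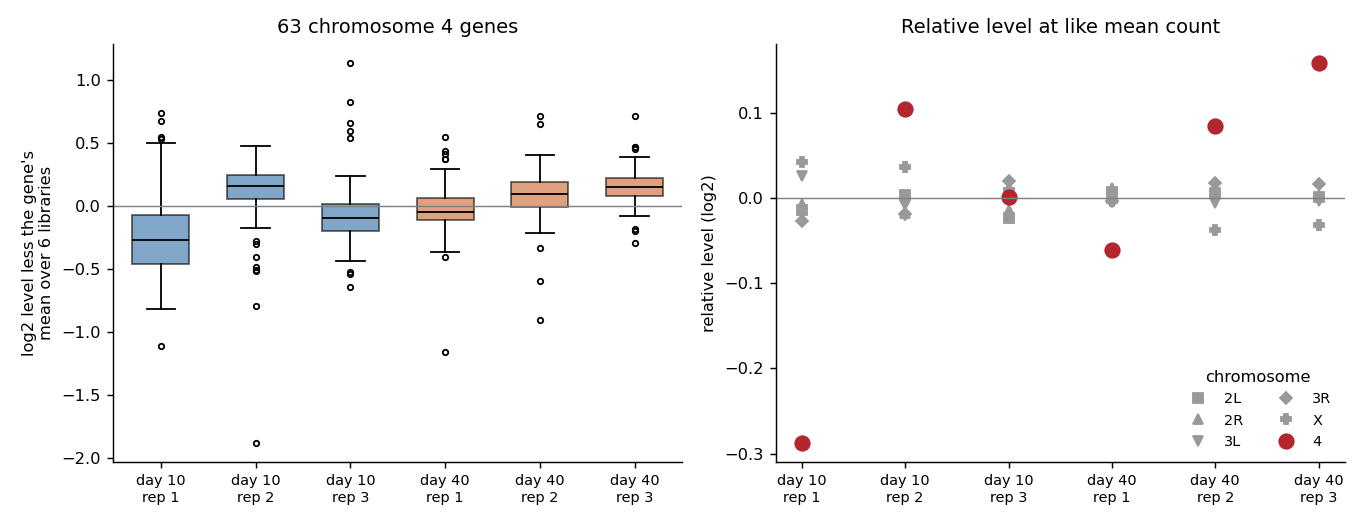
Left, log2 level of the 63 chromosome 4 genes less each gene's mean over the 6 libraries, as box plots (box: quartiles, line: median, whiskers: 1.5 times the interquartile range), with day 10 in blue and day 40 in orange. Right, the relative level per library at like mean count for chromosome 4 (red) and the 5 other arms (grey). Chromosome 4 lies at -0.29 in day 10 replicate 1 and at 0.16 in day 40 replicate 3, and the other arms stay within 0.05 of 0.

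As a share of all counts on single genes, chromosome 4 took 0.995%, 1.41% and 1.41% at day 10 and 1.21%, 1.36% and 1.47% at day 40. The lowest library was again day 10 replicate 1, where 62518 of 6284480 counts were on chromosome 4 (95% Wilson interval 0.987 to 1.00%). Such intervals cover counting error only. The means were 1.27 ± 0.24% and 1.35 ± 0.13% (SD, n = 3 each), which differed by 0.07 percentage points (two-sided exact permutation test, p = 0.7). Without day 10 replicate 1 the difference was -0.07. The spread between libraries of 1 age was also wider for single genes: the median SD of the log2 level within ages was 0.24 on chromosome 4 and 0.19 on the other arms at like mean count, and in the highest of the 5 bins 0.22 against 0.17.

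No chromosome 4 feature passed the test for a change in usage with age. Usage is the percentage of a gene's count that falls on 1 of its exonic parts or junctions. It was tested by edgeR as the interaction of age with the feature against the rest of its gene, over the 59968 features whose normalized counts averaged 5 or more. Of these, 1135 were on chromosome 4 (656 exonic parts, 461 annotated and 18 new junctions, in 58 genes), and 0 had an adjusted p under 0.05, against 2 of all features (0.00334%). DESeq2 and edgeR's diffSpliceDGE also called 0 of them. With so few features called in the series, a 0 on chromosome 4 is not particular to it. An unadjusted p under 0.05 was found for 36 of the 1135 (3.17%), against 3.02% of all features, with 19 higher and 17 lower at day 40, and for 2.52% of features on the other chromosomes at like mean count. Without day 10 replicate 1 it was found for 69 of the 1135, against 5.45% of all features. Without day 40 replicate 2 it was found for 19 of the 1135 (against 1.96% of all), and without day 40 replicate 3 for 20 (against 2.23%). In DESeq2 it was found for 26 of the 1135, against 2.16% of all features. The ages did not overlap for 143 (12.6%), against 9.65% of all features. In the highest of 5 bins of mean count this share was 16.8% of 333 features on chromosome 4 and 9.84% elsewhere. Features of the same gene are parts of the same count, so these shares do not rest on independent values. An unadjusted p under 0.05 was found for 0.601% and 1.26% in that bin and for 3.79% and 1.58% in the next lower bin. The authors reported differential splicing between the ages in these eyes with another test, JunctionSeq, and its results were not compared here.

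The 10 features with the lowest p are given as measured, each with an edgeR adjusted p of 1. Exonic part 2 of mGluR (938332 to 939117, 786 bases) is in all 4 annotated transcripts. Its usage was 19.2, 19.2 and 18.9% at day 10 and 30.5, 27.2 and 28.5% at day 40, from 44, 167 and 126 and from 110, 143 and 215 counts. The groups lay well apart, and the log2 change was 0.77 ± 0.24 (SE). Exonic part 10 of Ekar (642276 to 642428), in all 3 transcripts, had 5.40, 5.01 and 4.62% at day 10 and 2.95, 3.56 and 3.01% at day 40 (-0.68 ± 0.23). Junction 26 of Pur-alpha (560584 to 560717), also in all 7 transcripts, went from 5.05, 3.88 and 4.99% to 2.46, 2.62 and 3.10% (-0.77 ± 0.25). None of these 3 is an alternative part in the annotation.

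The others lie in 1 or 2 annotated transcripts of their gene, or in a gene with 1 transcript. Exonic part 2 of CaMKI (445649 to 446092), in 1 of 5 transcripts, had the lowest p of all, with a usage of 1.80, 1.25 and 1.53% at day 10 and 2.92, 3.34 and 2.46% at day 40 (log2 change 0.96 ± 0.26). Junction 46 of pan (108373 to 108426), in 1 of 9 transcripts, had 0.272, 0.241 and 0.272% and then 0.109, 0.131 and 0.154% (-0.95 ± 0.28), from between 6 and 32 counts a library. The other 4 rested on few counts: exonic part 1 of Cadps had 0 to 16 counts a library (1.91 ± 0.58), exonic part 3 of ey 2 to 18 (1.85 ± 0.57), and exonic parts 51 and 11 of bt 4 to 12 and 2 to 35 (1.10 ± 0.34 and -1.59 ± 0.54). For these the ages did not overlap, with the exception of exonic part 11 of bt, where 1 day 40 library (0.321%) lay above 1 day 10 library (0.305%).

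Kif3C, the one called gene with junctions, was also among these. Its last exonic part by position (part 5, 1166666 to 1169239, 2574 bases) took 45.7, 46.4 and 39.6% of the gene's counts at day 10 and 30.3, 30.2 and 31.2% at day 40 (log2 change -0.82 ± 0.28). Exonic part 4 had 27.6, 36.5 and 25.5% and then 39.1, 38.4 and 44.4%. Junction 9, which joins parts 4 and 5, had 1.90, 3.72 and 0.943% and then 5.84, 5.0 and 6.52%, from only 2, 12 and 3 counts and then 16, 22 and 38. Neither age overlapped the other in any of the 3. The 2 exonic parts of mav together make nearly the whole count of the gene, so that one is high where the other is low. Neither passed the test (edgeR p before adjustment 0.167 and 0.0736), though the ages did not overlap: part 1 (623219 to 624663) had 84.2, 77.2 and 78.0% and then 75.6, 75.9 and 74.0%, and part 2 had 17.2, 23.7 and 24.0% and then 27.5, 27.6 and 29.8%. The junction between them had 1.27, 0.857 and 1.77% at day 10 and 1.77, 2.43 and 3.71% at day 40, from 12, 10 and 16 and from 9, 15 and 28 counts. Exonic part 4 and junction 9 of Kif3C and the features of mav were picked after their values were seen, and their edgeR adjusted p was also 1.

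**Figure D5:**
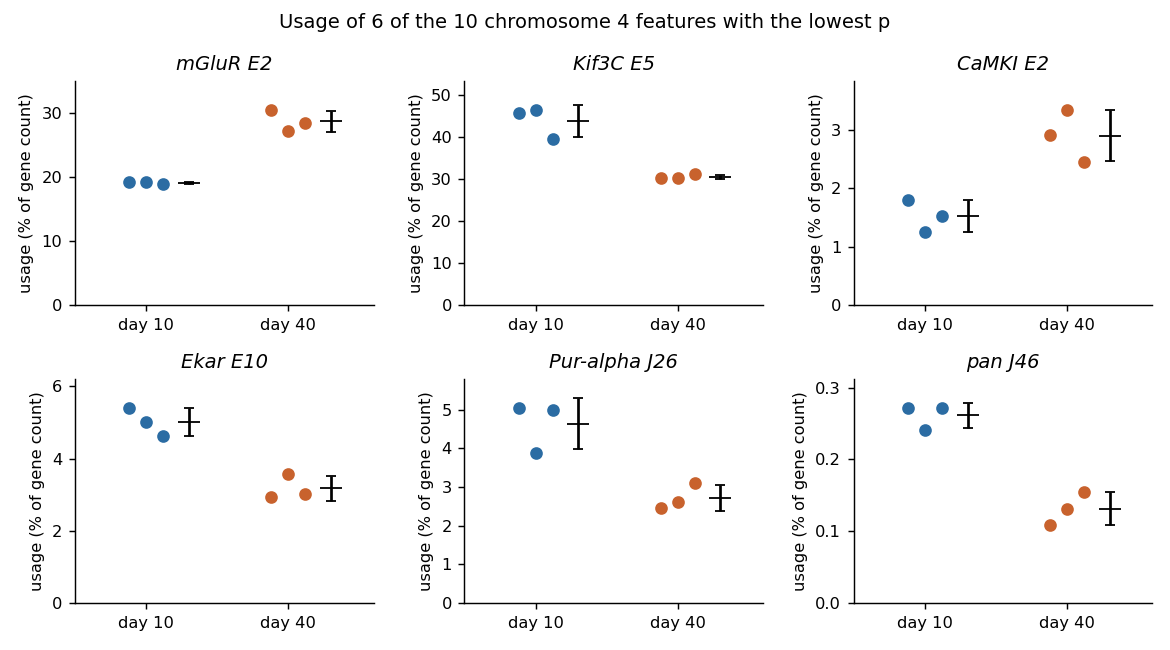
Usage of 6 chromosome 4 features (E, exonic part, and J, junction, with their number in the gene) as a percentage of the gene's count in each library, day 10 in blue and day 40 in orange. The bar beside each group is the mean with the SD over 3 libraries. The ages do not overlap in any of the 6, which were picked by their low p, and the edgeR adjusted p is 1 for each.

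The 18 new junctions lay in 14 genes, with 3 each in pan and CaMKI, and made 2.94 per 100 annotated junctions, against 1.22 on the other arms. They took between 0.583 and 1.07% of the junction counts of chromosome 4 per library, and between 0.526 and 0.66% on the other arms. Neither comparison was matched on mean count or gene span, both of which were higher on chromosome 4. All 18 new junctions passed the count minimum and 0 had an unadjusted p under 0.05. The most used was in Kif3C, where a junction of 2314 bases (1166853 to 1169166) lies wholly within exonic part 5 and held 1.90, 3.10 and 5.97% of the gene's counts at day 10 and 3.28, 4.09 and 4.46% at day 40. In Actbeta a new junction of 3297 bases (1078830 to 1082126) was seen in every library, with 9, 34 and 19 counts and then 11, 22 and 25. In pan a new junction of 2819 bases (95003 to 97821) had 25, 51 and 41 counts and then 19, 29 and 37. By contrast, the counts of the new junction of Ank were 36, 16 and 0, and then 25, 6 and 0. Those of the new junction of CG11360 were 0, 20 and 0, and then 27, 8 and 5. The new junctions of CG31998 and dpr7 had no count in day 40 replicate 3. Another in pan (104189 to 104303) had none in day 40 replicate 2. All of these were thus not seen in each library.

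Junction counts made a steady share of the feature counts of the single genes of chromosome 4. Their share was 18.5, 18.3 and 18.4% at day 10 and 18.9, 18.3 and 18.1% at day 40, with means of 18.4 ± 0.15% and 18.4 ± 0.43% (SD, n = 3 each) and a difference of 0.04 percentage points (two-sided exact permutation test, p = 0.9). On the single genes of the other arms it was lower and spread more, at 14.3, 16.6 and 16.5% and then 17.2, 16.0 and 15.8%. With the groups of overlapping genes included, the share of chromosome 4 was lower, at 15.2 ± 0.39% at day 10 and 15.9 ± 0.93% at day 40. The other arms were not taken with their groups, so the higher share and its steadiness hold for single genes only. All are shares of summed counts, in which high genes weigh most, and were not matched on mean count or on junctions per gene. For single genes, day 10 replicate 1 was the lowest on the other arms and not on chromosome 4. The gap between them was 4.23 percentage points in that library and 1.71 to 2.31 in the others.

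A further 17 groups of overlapping genes, with 38 genes, lie on chromosome 4 by RefSeq and are counted as groups, not as single genes, so that they are no members. They hold ci, the transcription factor of Hedgehog signalling, zfh2, unc-13, PlexB, ATPsynbeta and, with by far the highest count (a mean normalized count of 100844), Zyx with apolpp, the fly lipophorin. All 17 were tested and 0 were called by edgeR or DESeq2 (2 at an unadjusted p under 0.05 in edgeR), with a median log2 change of 0.02 and 9 above 0. With these groups counted, the share of chromosome 4 differed between the ages by -0.02 percentage points.

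Of 12 genes on other chromosomes that encode proteins of chromosome 4 chromatin (Pof, Eggless and its partner, HP1a and its partners, and others), 0 were called by edgeR and 1 by DESeq2. The log2 change was above 0 for 3 of the 12, with a median of -0.11. Of the 12, 6 share a count with other genes that they overlap. The lowest p in both tools, and the only edgeR p under 0.05 before adjustment, was that of Pof, which is counted together with Mmp1, at 880.4, 751 and 1002 normalized counts at day 10 and 1313, 1082 and 1253 at day 40 (log2 change 0.46 ± 0.14, edgeR adjusted p = 0.154), so that its count cannot be told from that of Mmp1. Of 16 genes that lie in the pericentric heterochromatin of other chromosomes, 13 were matched and 0 were called by edgeR or DESeq2, with 0 at an unadjusted p under 0.05 in edgeR. The log2 change was above 0 for 11 of the 13, with a median of 0.16, against 0.12 for the chromosome 4 members. A small positive shift was thus not particular to chromosome 4. Without day 10 replicate 1 the median of the 12 counted as single genes was 0.11, against 0.03 for the members. Day 10 replicate 1 was the lowest library for 10 of these 13, with a median log2 deviation of -0.26 in that library, and for 3 of the 12 regulators, with a median of -0.03. These are descriptions of small lists.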

How the data were processed

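Eyes were dissected from male flies at day 10 and day 40 (3 libraries each). The authors trimmed the reads with Trimmomatic and aligned them with TopHat to build BDGP6, per their processing notes, which give no versions, and deposited whole-number counts for genes, their exonic parts and their junctions, annotated or new, laid out for JunctionSeq. The parameters are not given in the sources used here. A deposited table of their usage comparison, with fold changes and p-values, was used only for feature positions (1 was added to each start) and for the list of features. Its other columns were not used. Chromosome 4 was taken from this table, and symbols matched 72 of the 73 genes, so that FBgn0039939 is named by its identifier. The table holds no groups of overlapping genes. No genome sequence was used here.

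Gene expression was tested with the quasi-likelihood test of edgeR 4.0.16 in R 4.3.3, with TMM normalization and the default filter, on all genes and groups. Usage was tested in the same way on the feature's count and the rest of its gene's count, with terms for library and row. The Benjamini-Hochberg adjustment was made over all genes or features tested, with thresholds of 0.1 for genes and 0.05 for usage. DESeq2 1.42.0 was an alternative for both, and diffSpliceDGE for usage. Both tests were tested on simulated data: of 200 genes changed by 2 on the log2 scale, all 200 were recovered with 35 others called among 9254, and of 200 features 198 with 9 others among 59939. These changes were larger than any named above, were set only in well-counted genes and features, and had a spread fixed in advance. The simulation therefore does not show how often smaller changes, or changes of shallow features, would be found. Single values per library were compared by two-sided exact permutation tests with SciPy 1.17.1.

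Genes named are those called, the 5 with a positive and the 5 with a negative change and the lowest p, the 10 with the highest count per kilobase, and those of the role lists. Features named are the 10 with the lowest p. Others were named after their values were seen. The members and lists were chosen with earlier results of these data known. Since the members are all single genes, the alternatives that leave out groups of overlapping genes from the share and the junction share were run as their reverse, with the groups added. Replicate numbers did not pair the libraries: the correlation of deviations of same-numbered libraries was 0.01, -0.03 and 0.16. The values of 1 member tested are not reported here by name.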

Additional observations from a re-analysis of the deposited data

How the results depend on the processing

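Under DESeq2, RLE normalization, no filter, a mean normalized count of at least 10, or without groups of overlapping genes, 2 chromosome 4 genes were called. With a replicate block 3 were called, Mitf being added (log2 change 0.56, edgeR adjusted p = 0.0962). Leaving out 1 library at a time gave between 1 and 3: Kif3C was lost without day 40 replicate 2 or 3, Arf4 was added without day 10 replicate 2 (log2 change 0.55, edgeR adjusted p = 0.0902), and mav without day 10 replicate 3. Calls over all genes moved too. They were 198 higher and 183 lower in the main fit, and 221 and 243 with the replicate block. Without day 40 replicate 2 they were 74 and 42, and without day 40 replicate 3 they were 100 and 46. Without day 10 replicate 2 they were 153 and 224, and without day 10 replicate 3 they were 190 and 152. Features called stayed at 0 in all alternatives, the replicate block included. The difference in the share of counts was 0.05 to 0.09 percentage points without the gene of highest count or with another denominator, -0.024 with the groups on chromosome 4 counted too (chosen after seeing the data), and -0.069 to 0.14 when 1 library was left out, below 0 only without day 10 replicate 1. The difference in relative level stayed above 0 throughout, from 0.01 to 0.22. The difference in junction share was 0.64 percentage points with the groups included and ranged from -0.20 to 0.21 percentage points with 1 library left out, and that of the gap to the other arms from -0.98 to 0.28. None of the 10 genes and 16 features of chromosome 4 that were run under the alternatives changed direction, and Pof was not run. They had been picked by their low p or after their values were seen, and in most of the features the ages did not overlap. A kept direction was thus largely given in advance. The cause of the shifts between settings was not tested.

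The smallest p that an exact test of 3 against 3 libraries allows is 0.1, and many features, such as exonic part 1 of Cadps with 0 to 16 counts, were shallow.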
